A study of Mus musculus with 18 samples.

Results

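The choroid plexus is the folded sheet of secretory epithelium and vessels in the brain ventricles that makes cerebrospinal fluid. The genes described here encode 10 proteins that its epithelium releases or sheds into that fluid: Ttr, Enpp2, Kl, Igfbp2, Igf2, Clu, Cst3, Sostdc1, Ptgds and Trf. They were chosen by symbol, all 10 were found among the 50584 genes of the deposited count table, and all 10 passed the low count filter that left 16598 genes for testing. RNA came from whole frozen choroid plexus of 2 related mouse strains: MRL/lpr at 16 weeks (6 libraries) and 12 weeks of age (6), and MRL/+ at 16 weeks (3) and 12 weeks (3). MRL/lpr mice carry the lpr mutation of the death receptor gene Fas and develop a systemic, lupus-like autoimmune disease. MRL/+ mice share the MRL background without that mutation and served as the control strain. The labels give no treatment, name no sex and do not say whether a library is 1 animal or a pool, so p-values here cover only the scatter between these samples, which may be technical.

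Choroid plexus epithelium exports proteins across its apical face into cerebrospinal fluid, and the set covers several jobs. Transthyretin (Ttr) carries thyroid hormone and retinol-binding protein, and transferrin (Trf) carries iron. Autotaxin (Enpp2) makes the lipid mediator lysophosphatidic acid, and lipocalin-type prostaglandin D synthase (Ptgds) makes prostaglandin D2 and is also made in meninges and oligodendrocytes. Insulin-like growth factor 2 (Igf2) drives growth of neural progenitors, and Igfbp2 binds insulin-like growth factors. Klotho (Kl) is the co-receptor of the hormone FGF23 and is shed as a soluble protein. Sostdc1 acts outside the cell on BMP and Wnt signalling, clusterin (Clu) is an extracellular chaperone, and cystatin C (Cst3) inhibits cysteine cathepsins.

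Total counts ran from 11164284 to 14602253 per library. Fas itself had 14 to 66 counts in MRL/lpr at 16 weeks and 23 to 28 in MRL/+ at 16 weeks, and 16 to 67 in MRL/lpr against 14 to 21 in MRL/+ at 12 weeks; a count over the whole gene does not check the lpr mutation. All 25 other epithelium genes of a fixed list (Folr1, Kcnj13, Aqp1, Otx2 and others) were detected, as the tissue label calls for. Several libraries carried transcripts of other tissues. A later fit dropped 4 of them: MRL/lpr 12 weeks replicates 1 and 4, MRL/+ 12 weeks replicate 1 and MRL/+ 16 weeks replicate 1. It kept MRL/lpr 12 weeks replicate 2 and MRL/lpr 16 weeks replicates 1, 2 and 3, which carried cerebellar markers. Pineal markers summed to 64.5 and 54.8 CPM (counts scaled to a fixed library total) in MRL/lpr 12 weeks replicates 1 and 4, skeletal muscle markers to 532 CPM in MRL/+ 16 weeks replicate 1, and cerebellar markers to 290 CPM in MRL/+ 12 weeks replicate 1. Cerebellar sums were also 170, 114 and 94.3 CPM in MRL/lpr 16 weeks replicates 1, 2 and 3, 151 CPM in MRL/lpr 12 weeks replicate 2 and 143 CPM in MRL/+ 16 weeks replicate 1, and at most 41.4 CPM in the other 12 libraries. Endothelial markers summed to 169 and 167 CPM in MRL/lpr 12 weeks replicate 6 and 16 weeks replicate 4, and to no more than 104 CPM in any other library. MRL/lpr tissue also held immune cells: macrophage markers summed to 425 to 3126 CPM in MRL/lpr and 123 to 182 CPM in MRL/+ at 16 weeks, and lymphocyte markers to 282 to 10488 CPM in MRL/lpr and 10.3 to 15.6 CPM in MRL/+ at 16 weeks.

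These few genes supplied a large part of all reads. At 16 weeks their counts made up 22.2% ± 2.99 of an MRL/lpr library and 26.9% ± 1.24 of an MRL/+ library, and at 12 weeks 25.5% ± 1.81 of an MRL/lpr and 25.1% ± 2.29 of an MRL/+ library (SD, n = 6 for MRL/lpr and 3 for MRL/+). By library the share ran from 18.8% to 26.9%, with a median of 22.2%, in MRL/lpr at 16 weeks, against 26.5%, 25.9% and 28.3% in MRL/+ replicates 1, 2 and 3. The ranges of the strains overlapped through 1 library, MRL/lpr 16 weeks replicate 5. Ttr held rank 1 and Enpp2 rank 2 of all genes by count share in every one of the 18 libraries. Without Ttr, the other 9 genes at 16 weeks took 6.33% ± 0.987 of counts in MRL/lpr and 8.47% ± 0.158 in MRL/+, and at 12 weeks 7.27% ± 0.698 in MRL/lpr and 8.93% ± 1.20 in MRL/+. No MRL/lpr library at 16 weeks reached the MRL/+ range for these 9 genes: the highest was 7.65%, and the lowest MRL/+ library was 8.29%. Enpp2 alone made up most of this sum. Its mean share of counts at 16 weeks was 4.81% for MRL/lpr, against 6.73% for MRL/+. The mean Enpp2 shares of the younger mice were 5.66% and 7.18%, in the same order. The strain gap in the sum was therefore largely that of Enpp2, and such a sum does not show how the less abundant genes moved. At 16 weeks 9 of the 10 genes, Ttr included, had a log2 fold change (MRL/lpr over MRL/+) below 0. A sum over chosen genes was given no p-value.

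Compared per length, as TPM (transcripts scaled to a fixed total) from the counts and the exon length in the table, the genes covered 4 orders of magnitude. Ttr averaged 308621 TPM over the 18 libraries and Enpp2 36940 TPM. Igfbp2 averaged 3447, Cst3 3248, Ptgds 2216, Clu 1789 and Igf2 1598 TPM, Kl 587 and Sostdc1 571 TPM, and Trf 29.7 TPM. Ttr was above Enpp2, Enpp2 above Igfbp2, Igf2 above Kl and Sostdc1 above Trf in all 18 libraries. The other neighbours in the order changed places between libraries: Igfbp2 was above Cst3 in 11 libraries, Cst3 above Ptgds in 15, Ptgds above Clu in 12, Clu above Igf2 in 13 and Kl above Sostdc1 in 12. On TPM Ptgds varied most among the libraries, with a coefficient of variation of 38.8%, and Ttr least, with 8.16%. Ttr itself makes up much of the fixed TPM total, which limits how far its TPM can vary. On CPM, another gene varied less than Ttr in each group. At 16 weeks these were Trf in MRL/lpr (13.7% against 22.7%) and Enpp2 in MRL/+ (4.78% against 10.7%). At 12 weeks they were Igfbp2 in MRL/lpr (12.8% against 16.9%) and Clu in MRL/+ (2.5% against 16.9%). Because the exons of all transcripts of a gene are pooled into 1 length, the TPM of a gene with long alternative exons, such as Igf2 with 5723 exonic bases or Kl with 9328, is a lower estimate.

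**Figure D1:**
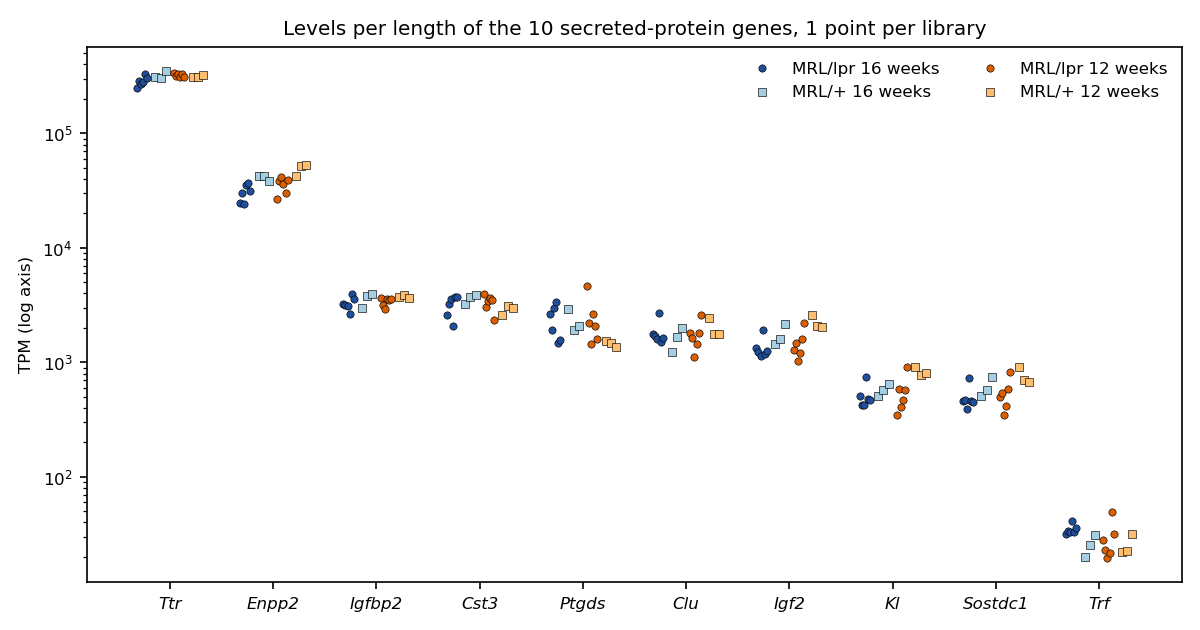
TPM on a log axis (vertical) of each of the 10 genes (horizontal), 1 point per library, circles for MRL/lpr and squares for MRL/+, at 16 and 12 weeks. Ttr (mean 308621 TPM) and Enpp2 (36940 TPM) stand above the other 8 genes in every library, and Trf (29.7 TPM) stands below them.

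The comparison of strains asked whether the lupus-prone tissue held different amounts of these transcripts. Over both ages, 4 of the 10 genes were lower in MRL/lpr and none was higher: Igf2, Sostdc1, Kl and Enpp2, each by 0.49 to 0.58 on the log2 scale. Ttr, Igfbp2, Clu, Cst3, Ptgds and Trf did not pass edgeR's test. Among all 16598 genes tested, 5.22% were lower and 11% higher in the same comparison, 16.3% in either direction (edgeR quasi-likelihood test, Benjamini-Hochberg adjusted p under 0.05). The median log2 fold change, MRL/lpr over MRL/+, was -0.17 for the 10 genes and -0.01 for all genes. At 16 weeks alone 1 of the 10 genes was called, Igf2, against 2.64% of all genes lower and 8.49% higher (11.1% in either direction), and the median of the 10 genes was -0.46 against 0.03 for all genes. At 12 weeks edgeR called none of the 10, with 3 at an unadjusted p under 0.05, against 6.35% of all genes called in either direction (5.01% higher and 1.34% lower); DESeq2 called 1 of the 10 and 10% of all genes, and limma-voom 5 of the 10 and 21% of all genes. In whole tissue, fewer epithelial cells and less RNA per epithelial cell cannot be told apart.

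**Figure D2:**
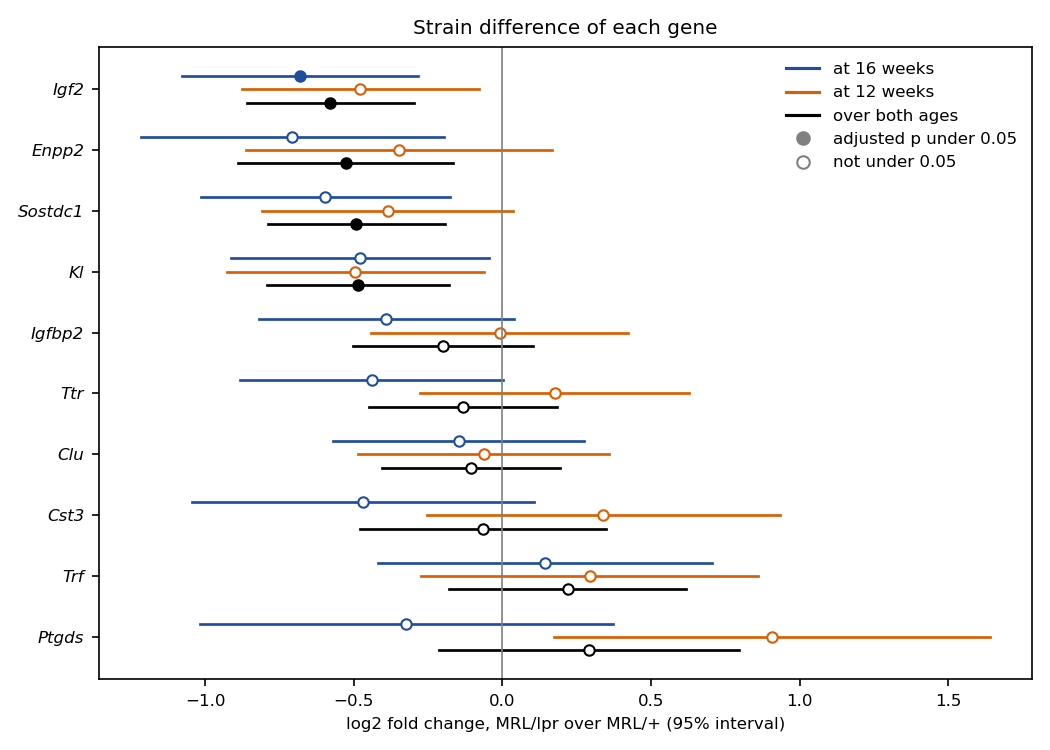
Log2 fold change, MRL/lpr over MRL/+ (horizontal), of each gene (vertical) at 16 weeks, at 12 weeks and over both ages, with 95% intervals from the edgeR fit. Filled points have an adjusted p under 0.05: Igf2, Enpp2, Sostdc1 and Kl over both ages, and Igf2 at 16 weeks.

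Igf2 showed the steadiest strain difference. At 16 weeks it ran from 2405 to 4252 CPM, with a median of 3298, in the 6 MRL/lpr libraries, against 4496, 4672 and 6788 CPM in MRL/+ replicates 1, 2 and 3. At 12 weeks it ran from 3050 to 4715 CPM, with a median of 3664, in MRL/lpr, against 5039, 5537 and 5240 CPM in MRL/+. Every MRL/lpr library lay below every MRL/+ library of its age. At 16 weeks 8.75% of all genes tested, and at 12 weeks 5% of them, were below in MRL/lpr with no overlap. Igf2 fell by 0.58 (SE 0.13, adjusted p 0.0049) over both ages and by 0.68 (SE 0.18, adjusted p 0.025) at 16 weeks; at 12 weeks its log2 fold change was -0.48 (SE 0.19, adjusted p 0.14). Over both ages the call held in 29 of 29 fits, the reported one and 28 alternatives, with log2 fold changes from -0.73 to -0.34 and adjusted p up to 0.046. The smallest difference, -0.34, came when libraries were scaled to the 25 other epithelium genes, and its adjusted p was 0.011 there. The 16 week call held in 14 of 21 fits. It was lost with total counts in place of TMM scaling (-0.43, adjusted p 0.13), without the low count filter (adjusted p 0.10), with only the groups compared (0.075) and without the 4 libraries that stood out for pineal, muscle or cerebellar markers (0.084). It was also lost without MRL/lpr replicate 1 (adjusted p 0.069) or replicate 3 (0.067) or without MRL/+ replicate 3 (0.18). Igf2 (chr7:142650766-142666816, minus strand, GRCm38) shares 98 exonic bases, 1.71% of its exons, with its antisense gene Igf2os, which had 96 to 185 counts a library against at least 31968 for Igf2.

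Igfbp2 (chr1:72824503-72852474, plus strand), the binding protein of that growth factor, did not pass edgeR's test. It ran from 1889 to 3808 CPM in MRL/lpr and from 2987 to 3977 CPM in MRL/+ at 16 weeks, and from 2465 to 3446 CPM in MRL/lpr and 2363 to 3357 CPM in MRL/+ at 12 weeks. The strains overlapped at both ages. Its log2 fold change over both ages was -0.20, with a 95% interval from -0.50 to 0.10. Limma-voom called Igfbp2 lower over both ages (-0.26, adjusted p 0.0488) and at 16 weeks (-0.38, adjusted p 0.0498), just under the threshold.

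Sostdc1 and Kl, both regulators of extracellular signalling, were lower by a similar amount. Sostdc1 (chr12:36314169-36318452, plus strand) ran from 254 to 494 CPM, with a median of 373, in MRL/lpr at 16 weeks, against 479, 508 and 707 CPM in MRL/+ replicates 1, 2 and 3. In 12 week tissue it ran from 319 to 531 CPM, with a median of 423, in MRL/lpr, against 546, 581 and 528 CPM in MRL/+. At each age 5 of 6 MRL/lpr libraries lay below every MRL/+ library. Sostdc1 fell by 0.49 (SE 0.14, adjusted p 0.021) over both ages. Its call was lost in 4 of the 18 fits that left out 1 library: MRL/lpr 16 weeks replicate 1, MRL/+ 12 weeks replicates 1 and 2 and MRL/+ 16 weeks replicate 3, where the adjusted p was 0.056, 0.057, 0.058 and 0.090.

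Kl (chr5:150952607-150993817, plus strand) ran from 1467 to 2730 CPM, with a median of 2002, in MRL/lpr at 16 weeks, against 2562, 2706 and 3308 CPM in MRL/+ replicates 1, 2 and 3. In the younger mice it ran from 1653 to 3155 CPM, with a median of 2210, in MRL/lpr, against 2886, 3368 and 3411 CPM in MRL/+. The single MRL/lpr library inside the MRL/+ range was replicate 4 at 16 weeks and replicate 6 at 12 weeks, the 2 libraries with the highest endothelial sums. Kl fell by 0.49 (SE 0.14, adjusted p 0.026) over both ages, with like values of -0.48 at 16 weeks and -0.49 at 12 weeks. Its call was lost in 7 of the 18 fits that left out 1 library, with adjusted p from 0.052 to 0.088: MRL/lpr 12 weeks replicate 4, MRL/lpr 16 weeks replicates 1 and 3, MRL/+ 12 weeks replicates 1, 2 and 3, and MRL/+ 16 weeks replicate 3. Libraries also differed in the share of counts on short genes (at most 1500 exonic bases). Ttr, with 1219 exonic bases and at least 13.5% of counts in every library, cannot be part of this share of 5.43% to 11.9%. What else the share leaves out is not given here. Within groups it went with Kl, the gene with the longest exons here, at a Pearson r of -0.61. It also went with Cst3 (r = 0.67), Ptgds (0.55) and Ttr (0.48), and against Igf2 (-0.41) and Sostdc1 (-0.38). That share was 8.26% to 10.7% in MRL/lpr and 8.26% to 9.61% in MRL/+ at 16 weeks, but 7.04% to 11.9% in MRL/lpr and 5.43% to 7.01% in MRL/+ at 12 weeks; its part in the strain differences was not tested.

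The 250 bases before the transcription start are shown for Igf2 and Kl, which were lower in MRL/lpr, and for Igfbp2, which edgeR did not call. The sequences are from RefSeq on GRCm38.p6, 5′ to 3′ on the gene's strand, and capitals mark GGGCGG or its reverse complement CCGCCC, the GC box bound by Sp1-family factors. RefSeq lists 4 starts for Igf2, and the one farthest downstream is printed; the windows of the others are not shown. Of 2 starts for Igfbp2 the upstream one is printed, and for Kl the table holds 1. The printed windows hold 0 bases of their gene's annotated exons and were chosen after the motif counts were known.
Igf2, chr7:142657497-142657746, minus strand: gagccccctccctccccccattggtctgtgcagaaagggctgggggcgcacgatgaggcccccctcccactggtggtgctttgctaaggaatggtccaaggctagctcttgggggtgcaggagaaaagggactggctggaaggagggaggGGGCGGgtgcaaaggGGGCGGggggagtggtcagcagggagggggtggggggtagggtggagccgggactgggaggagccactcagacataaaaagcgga
Kl, chr5:150952357-150952606, plus strand: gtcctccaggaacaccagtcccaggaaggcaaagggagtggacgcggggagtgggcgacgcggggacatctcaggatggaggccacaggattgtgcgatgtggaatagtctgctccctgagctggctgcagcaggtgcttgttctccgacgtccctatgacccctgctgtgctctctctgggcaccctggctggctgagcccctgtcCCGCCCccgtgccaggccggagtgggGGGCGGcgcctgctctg
Igfbp2, chr1:72824230-72824479, plus strand: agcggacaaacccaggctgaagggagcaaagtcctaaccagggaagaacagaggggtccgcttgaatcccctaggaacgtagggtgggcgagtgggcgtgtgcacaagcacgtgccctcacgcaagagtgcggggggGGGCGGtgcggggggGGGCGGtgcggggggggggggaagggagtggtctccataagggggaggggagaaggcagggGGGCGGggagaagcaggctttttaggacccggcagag
The motif, which overlaps no other letters searched, stood at 2 places in the Igf2 window, at 2 in the Kl window and at 3 in the Igfbp2 window. Of 32851 promoter windows of the same length, 32.7% held it at least once. The count depends on the start: the 4 Igf2 windows held 0, 0, 1 and 2 matches, and the second Igfbp2 window 0. The printed windows were GC-rich, with 66% G and C in Igf2, 66.8% in Kl and 67.2% in Igfbp2.

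Enpp2, the enzyme with the second largest share of counts, was lower over both ages, and its groups were apart at 16 weeks. At that age it ran from 31033 to 66901 CPM, with a median of 47595, in MRL/lpr. In MRL/+ replicates 1, 2 and 3 it was 80126, 74451 and 73359 CPM, with no overlap. Of all genes tested, 8.75% were likewise below in MRL/lpr with no overlap at 16 weeks. At 12 weeks it ran from 46801 to 80334 CPM, with a median of 52727, in MRL/lpr, against 49881, 83746 and 82843 CPM in MRL/+. MRL/+ 12 weeks replicate 1, the library with the highest cerebellar sum, lay among the MRL/lpr libraries. Enpp2 (chr15:54838898-54920146, minus strand) fell by 0.53 (SE 0.17, adjusted p 0.041) over both ages; the log2 fold change was -0.71 (SE 0.24, adjusted p 0.065) at 16 weeks and -0.35 (SE 0.24, adjusted p 0.42) at 12 weeks, a difference between ages of -0.36 (SE 0.34, adjusted p 0.59). This was the least stable of the 4 calls. It held in 4 of the 18 fits that left out 1 library (MRL/lpr 12 weeks replicate 3, MRL/lpr 16 weeks replicates 5 and 6, and MRL/+ 12 weeks replicate 1), and in the others the adjusted p was 0.051 to 0.12. It was below 0 in 29 of 29 fits, with values from -0.63 to -0.29.

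Ptgds, the other enzyme, gave the widest scatter and no call by edgeR. At 16 weeks it ran from 1232 to 2168 CPM, with a median of 1603, in MRL/lpr, against 2612, 1596 and 1860 CPM in MRL/+ replicates 1, 2 and 3. In 12 week tissue Ptgds ran from 979 to 3892 CPM, with a median of 1605, in MRL/lpr, against 865, 1141 and 1014 CPM in MRL/+. The strains overlapped at both ages, and at 12 weeks 5 of 6 MRL/lpr libraries lay above all 3 MRL/+ libraries. Its log2 fold change was -0.32 (SE 0.32, adjusted p 0.51) at 16 weeks and 0.91 (SE 0.34, adjusted p 0.13) at 12 weeks. The 12 week value passed the threshold under DESeq2 (adjusted p 0.039) and limma-voom (0.022). Fibroblast and meningeal markers (13 genes, none at 0 in any group) summed to 627 to 1005 CPM in MRL/lpr and 778 to 1151 CPM in MRL/+ at 16 weeks, and to 798 to 1122 CPM in MRL/lpr and 466 to 741 CPM in MRL/+ at 12 weeks. This sum was higher in every MRL/lpr than MRL/+ library at 12 weeks. Over 18 libraries, within groups, Ptgds went with the fibroblast and meningeal sum at r = 0.32 and with the macrophage sum at r = 0.54. At 12 weeks MRL/lpr replicate 3 had the highest fibroblast and meningeal sum, 1122 CPM, with 1314 CPM of Ptgds. Replicate 1 had a sum of 1020 CPM with 3892 CPM of Ptgds. The part of either cell type in the Ptgds values was not tested. Ptgds lies at chr2:25466709-25470046, minus strand.

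Of the 2 carriers, Ttr (chr18:20665250-20674324, plus strand) dominated every library and did not differ beyond the test's threshold. At 16 weeks it took 15.9% ± 2.17 of all counts in MRL/lpr and 18.4% ± 1.39 in MRL/+, and at 12 weeks 18.2% ± 1.79 in MRL/lpr and 16.2% ± 1.11 in MRL/+. Its level at 16 weeks ran from 121614 to 210250 CPM, with a median of 145716, in MRL/lpr, against 203837, 188309 and 232224 CPM in MRL/+ replicates 1, 2 and 3. A single MRL/lpr library, replicate 5, reached the MRL/+ range. Ttr at 12 weeks ran from 139120 to 222757 CPM, with a median of 179393, in MRL/lpr, against 129883, 176170 and 178278 CPM in MRL/+, with overlap. Its log2 fold change was -0.44 (95% interval -0.88 to 0.00, adjusted p 0.17) at 16 weeks and 0.18 (-0.28 to 0.63, adjusted p 0.66) at 12 weeks.

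Trf (chr9:103204001-103230444, minus strand) was the lowest of the 10 genes. It ran from 41.0 to 56.7 CPM in MRL/lpr and from 36.3 to 56.6 CPM in MRL/+ at 16 weeks, and from 31.4 to 78.4 CPM in MRL/lpr and 25.1 to 47.3 CPM in MRL/+ at 12 weeks, with overlap at both ages. Its log2 fold change over both ages was 0.22 (95% interval -0.18 to 0.62). The Trf counts are uncertain: 2108 of its exonic bases (63.5%) are shared with the same-strand gene model Gm20425, which had 0 counts in every library, and how the authors' counting treated reads on both is not given in the sources used here.

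Clusterin and cystatin C did not differ between strains beyond the threshold. Clu (chr14:65968483-65981548, plus strand) ran from 2047 to 3652 CPM in MRL/lpr and from 2286 to 3745 CPM in MRL/+ at 16 weeks, and from 2102 to 3295 CPM in MRL/lpr and 2732 to 2858 CPM in MRL/+ at 12 weeks. Its log2 fold change over both ages was -0.11, with a 95% interval from -0.40 to 0.19. Cst3 (chr2:148871722-148875692, minus strand) ran from 1026 to 2429 CPM in MRL/lpr and from 2226 to 2698 CPM in MRL/+ at 16 weeks, and from 1092 to 2531 CPM in MRL/lpr and 1126 to 1861 CPM in MRL/+ at 12 weeks. At 16 weeks 5 of 6 MRL/lpr libraries lay below all MRL/+ libraries, and at 12 weeks 4 of 6 lay above them. The Cst3 log2 fold change was -0.47 (SE 0.27, adjusted p 0.25) at 16 weeks and 0.34 (SE 0.28, adjusted p 0.50) at 12 weeks. The lowest Cst3 values among the 18 libraries, 1026 and 1092 CPM, were those of MRL/lpr 16 weeks replicate 4 and 12 weeks replicate 6, which also had the highest endothelial sums (167 and 169 CPM) and the lowest ependymal sums (301 and 311 CPM).

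**Figure D3:**
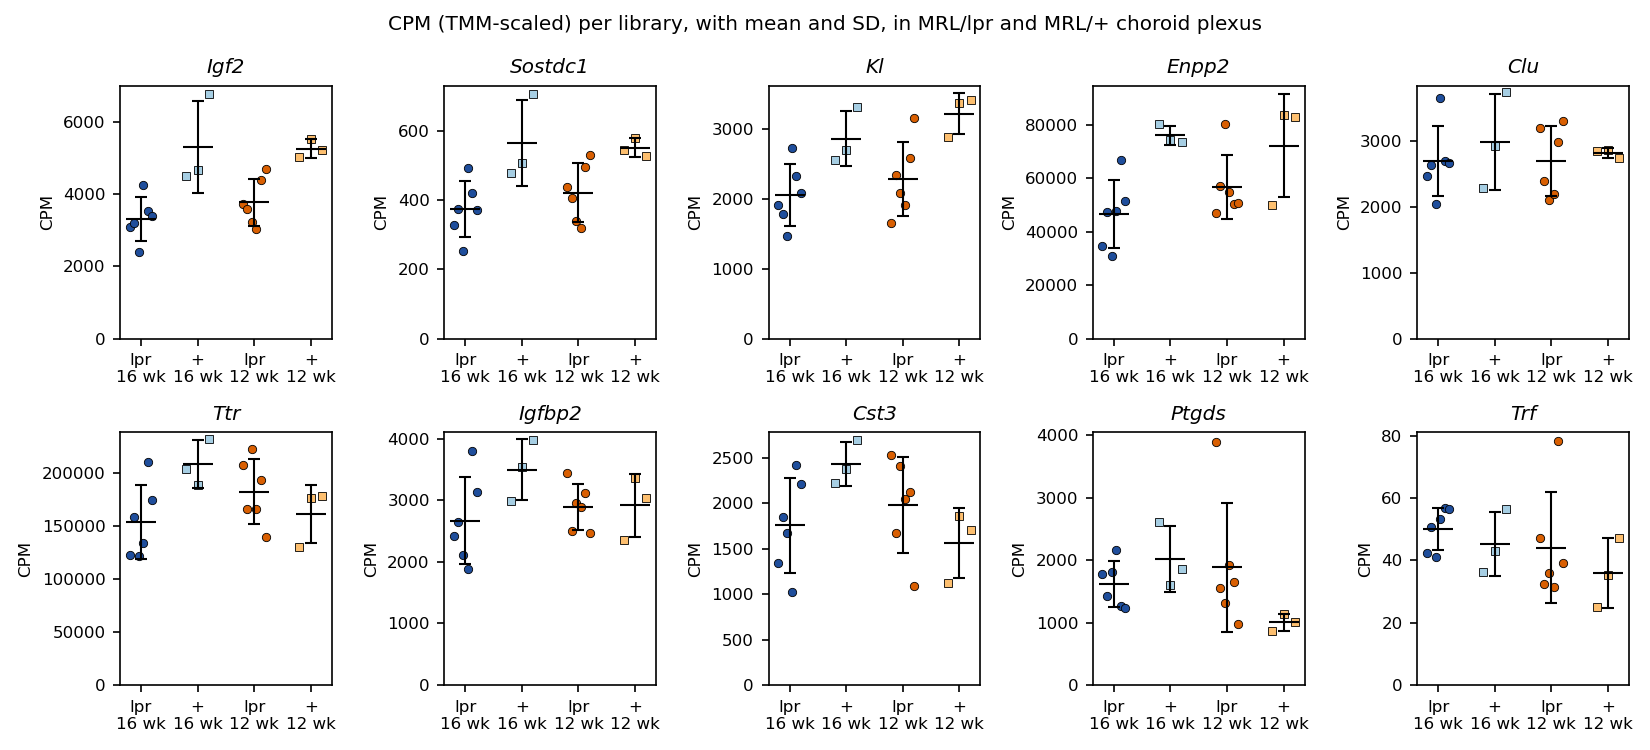
CPM with TMM-scaled library sizes (vertical, from 0) of each gene in MRL/lpr (circles) and MRL/+ (squares) at 16 and 12 weeks (horizontal), 1 point per library, with the mean and SD of each group. The top row holds Igf2, Sostdc1, Kl and Enpp2, the genes called lower in MRL/lpr over both ages, and Clu; Igf2 libraries do not overlap between strains at either age.

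By edgeR, no gene of the set passed the test for age within a strain. For MRL/lpr at 16 against 12 weeks, edgeR called none of the 10 and none had an unadjusted p under 0.05, DESeq2 and limma-voom also called none, and 0.0361% of all genes were called (0.0181% higher and 0.0181% lower). For MRL/+ at 16 against 12 weeks, edgeR called none of the 10 and 1 had an unadjusted p under 0.05, Ptgds; limma-voom called Ptgds, along with 10.4% of all genes, DESeq2 called none of the 10 and 0.0723% of all genes, and edgeR called 0% of all genes. Ptgds averaged 2023 ± 527 CPM at 16 weeks and 1007 ± 138 CPM at 12 weeks in MRL/+ (SD, n = 3 each), without overlap. Its log2 fold change, 16 over 12 weeks, was 1.01 with a 95% interval from 0.19 to 1.83. Ttr and Cst3 in MRL/+ also ran higher at 16 than at 12 weeks without overlap, as 15.3% of all genes did, with log2 fold changes of 0.37 and 0.64 that did not pass the test. Within groups all 3 went with the share of counts on short genes (Ttr left out). In MRL/+ that share was also higher at 16 weeks (8.26% to 9.61%) than at 12 weeks (5.43% to 7.01%). Its part in these values was not tested. The strain by age interaction was called for none of the 10 and for 0% of all genes by edgeR, and for none of the 10 by DESeq2 or limma-voom. The one gene with an unadjusted p under 0.05 was again Ptgds, at -1.23 (SE 0.47, adjusted p 0.36). The difference of the strain effects between the ages was -0.62 (95% interval -1.25 to 0.02) for Ttr and -0.81 (-1.64 to 0.02) for Cst3.

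Within groups the genes varied together in 2 blocks. After group means were subtracted from log2 CPM, Igf2 and Sostdc1 moved almost as 1 gene over the 18 libraries, with Pearson r = 0.98 and Spearman rho = 0.97 (permutation p 1e-05, the smallest the 100000 permutations can give, adjusted p 0.00022 over 45 pairs). Clu joined them, with r = 0.92 (rho 0.95, adjusted p 0.00022) to Sostdc1 and 0.91 (rho 0.92, adjusted p 0.0011) to Igf2. Kl belonged to the same block, with r = 0.84 (rho 0.81, adjusted p 0.0011) to Igf2 and 0.79 (rho 0.72, adjusted p 0.0069) to Sostdc1. The second block held Ttr, Igfbp2 and Cst3. There r was 0.85 (rho 0.91, adjusted p 0.0003) for Igfbp2 and Cst3, 0.85 (rho 0.91, adjusted p 0.0011) for Ttr and Cst3, and 0.84 (rho 0.88, adjusted p 0.0015) for Ttr and Igfbp2. Enpp2 went with Ttr at r = 0.76 (rho 0.64, adjusted p 0.012). Trf went weakly with Igf2 at r = 0.60 (rho 0.71, adjusted p 0.031) and with Sostdc1 at 0.57 (rho 0.61, adjusted p 0.038). These were the 11 pairs of 45 with an adjusted permutation p under 0.05, all positive.

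Without the 2 libraries farthest from the median of the first gene, r was 0.97 for Igf2 and Sostdc1, 0.86 for Igf2 and Clu, 0.92 for Kl and Igf2, 0.91 for Ttr and Cst3, 0.85 for Igfbp2 and Cst3 and 0.65 for Ttr and Enpp2. The second block was looser on another scale: on the log2 share of counts, r was 0.77 for Ttr and Cst3, 0.65 for Ttr and Igfbp2 and 0.46 for Ttr and Enpp2, while Igf2 and Sostdc1 stayed at 0.98. The median r of the 45 pairs was 0.18 on log2 CPM and 0.00 on log2 shares. Between the blocks r on log2 CPM ran from -0.39 for Kl and Cst3 to 0.18 for Ttr and Sostdc1. On log2 shares Cst3 went against the first block, with r = -0.76 to Kl, -0.63 to Igf2, -0.58 to Sostdc1 and -0.54 to Clu. The summed CPM of the 25 other epithelium genes went with Kl (r = 0.88), Igf2 (0.86) and Sostdc1 (0.83), less with Ttr (0.43), and at -0.02 with Cst3. Cst3 went instead with the ependymal sum (r = 0.91) and against the endothelial sum (-0.86, rho -0.72). Igfbp2 and Ttr did likewise, at 0.78 and 0.75 with the ependymal sum and -0.61 and -0.57 with the endothelial sum. Kl and Igf2 went against the astrocyte sum (-0.75 and -0.67), the neuronal sum (-0.72 and -0.73) and the cerebellar sum (-0.65 and -0.66). All of these are descriptions over 18 libraries that share a library size and a piece of tissue between both genes of a pair.

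**Figure D4:**
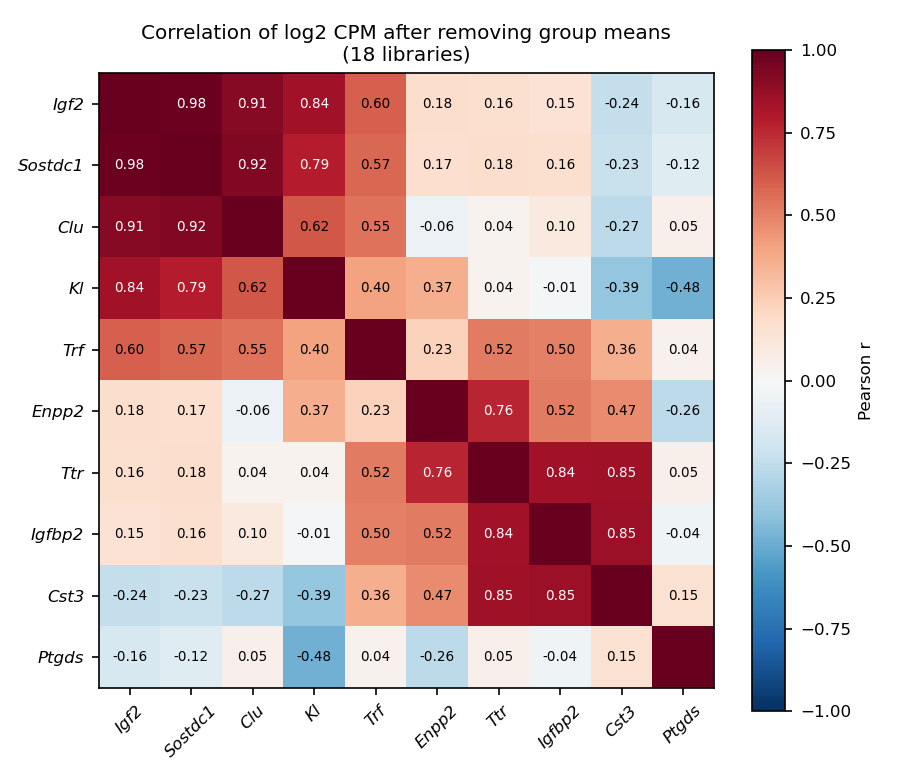
Pearson r between each pair of genes (both axes) of log2 CPM after group means were subtracted, over 18 libraries, from blue (-1) to red (1). Igf2, Sostdc1, Clu and Kl form one block, with r of 0.62 to 0.98, and Ttr, Igfbp2 and Cst3 a second, with r of 0.84 and 0.85.

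Clu followed Igf2 and Sostdc1 from library to library within groups, while its own strain difference did not pass the test. The ratio of Igf2 to Clu counts, which does not depend on library size, ran from 1.16 to 1.31 in MRL/lpr and from 1.60 to 1.97 in MRL/+ at 16 weeks, and from 1.17 to 1.53 in MRL/lpr and 1.77 to 1.94 in MRL/+ at 12 weeks. The 12 MRL/lpr libraries lay below all 6 MRL/+ libraries. The ratio of Sostdc1 to Clu was 0.124 to 0.170 in MRL/lpr and 0.174 to 0.210 in MRL/+ over both ages, again without overlap. For Kl over Clu the strains overlapped, with 0.519 to 0.993 in MRL/lpr and 0.883 to 1.25 in MRL/+. Igf2 over Sostdc1 also overlapped and hardly varied, with 8.41 to 9.55 in MRL/lpr and 9.19 to 9.93 in MRL/+. These ratios were chosen after the correlations were seen and were given no test. How often ratios of other genes separate the strains in this way was not counted. The ratios reuse the counts of the single-gene comparisons and are not separate support for them.

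**Figure D5:**
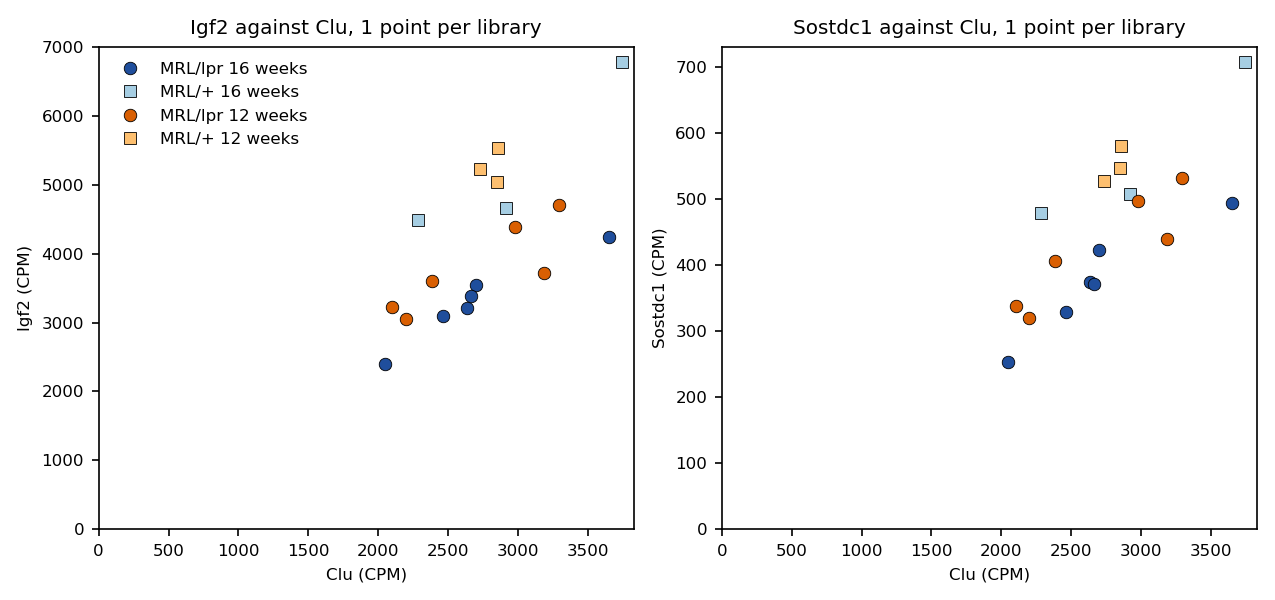
CPM of Igf2 (left, vertical) and Sostdc1 (right, vertical) against CPM of Clu (horizontal), axes from 0, 1 point per library of the 4 groups. At a given Clu level the MRL/lpr circles lie below the MRL/+ squares: the count ratio of Igf2 to Clu is 1.16 to 1.53 in MRL/lpr and 1.60 to 1.97 in MRL/+.

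The genes whose log2 CPM was most like that of each member within groups were sought among 12669 tested genes with a symbol and a mean log2 CPM of at least 1. For Igf2 the closest was Sostdc1 itself (r = 0.98), then Tspan33 (0.97) and Letm1 (0.95). For Sostdc1 they were Igf2, Tspan33 (0.97) and Atp6ap1 (0.97). Cst3 had Rabac1 (0.99), Tmem205 (0.99) and Cnpy2 (0.98), and Igfbp2 had Ccdc107, Tmem9 and Atp6v0b (all 0.94). Clu had Cyb561 (0.96), Yipf3 (0.96) and Glmp (0.95). Kl had Trim24 (0.96), Slc28a3 (0.96) and Tbc1d9 (0.93), Enpp2 had Nptn (0.96), Mut (0.95) and Frk (0.94), and Ttr had Aifm1 (0.95), Selenos (0.94) and Laptm4a (0.94). Ptgds and Trf had looser neighbours: Crabp2 (0.88), Nbl1 (0.87) and Igfbp6 (0.86) for Ptgds, and Btd (0.90), Parl (0.86) and Nt5dc2 (0.85) for Trf.

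Among the receptors and partners of these proteins, 29 of 33 listed genes were tested. Over both ages 3 of the 29 were higher and none lower in MRL/lpr, against 11% of all genes higher and 5.22% lower, at a median log2 fold change of 0.02 against -0.01 for all genes. Ctss, a cathepsin of antigen-presenting cells that cystatin C inhibits, averaged 456 ± 255 CPM in MRL/lpr and 31.8 ± 3.23 CPM in MRL/+ at 16 weeks, and rose by 3.89 on the log2 scale over both ages (SE 0.44, adjusted p 2.6e-05). Lpar2, a receptor for the autotaxin product lysophosphatidic acid, rose by 0.52 (SE 0.17, adjusted p 0.045), and Ptgdr, a prostaglandin D2 receptor, by 0.96 (SE 0.31, adjusted p 0.045), both at about 1 to 2 CPM. A further lysophosphatidic acid receptor, Lpar1, was at 0.80 (SE 0.28, adjusted p 0.059). The macrophage and lymphocyte sums given above moved with Ctss, and their part in it was not tested.

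Of 26 other secreted proteins, 4 were higher and none lower over both ages, against 11% of all genes higher and 5.22% lower, at a median log2 fold change of 0.04. B2m, the light chain of MHC class I, rose by 2.44 (SE 0.36, adjusted p 0.00014). Bmp4, a morphogen, rose by 0.54 (SE 0.11, adjusted p 0.0025), the lipid carrier Apod by 1.24 (SE 0.28, adjusted p 0.0046) and the copper protein ceruloplasmin (Cp) by 1.14 (SE 0.32, adjusted p 0.020). Bmp4 averaged 29.7 ± 5.91 CPM in MRL/lpr and 24.3 ± 3.20 CPM in MRL/+ at 16 weeks, and 30.7 ± 3.54 CPM in MRL/lpr and 17.8 ± 2.24 CPM in MRL/+ at 12 weeks. BMP ligands are what Sostdc1 binds.

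The 25 epithelium genes that are not secreted proteins of this set had log2 fold changes below 0 over both ages in 22 of 25 cases. Over both ages 5 of the 25 were lower and none higher in MRL/lpr, against 5.22% of all genes lower and 11% higher, at a median log2 fold change of -0.23. They were the prolactin receptor Prlr, which fell by 1.08 (SE 0.24, adjusted p 0.0040), the transcription factors Msx1, by 0.50 (SE 0.10, adjusted p 0.0015), and Lmx1a, by 0.32 (SE 0.07, adjusted p 0.0047), the serotonin receptor Htr2c, by 0.53 (SE 0.15, adjusted p 0.021), and the potassium channel subunit Kcne2, by 0.55 (adjusted p 0.037), named after its value was seen. The summed CPM of the 25 genes ran from 9821 to 15436 in MRL/lpr and from 14190 to 17673 in MRL/+ at 16 weeks, and from 12075 to 16023 in MRL/lpr and 14196 to 16832 in MRL/+ at 12 weeks. Scaled to that sum, Igf2 stayed lower in MRL/lpr over both ages, while Kl (-0.26, adjusted p 0.064), Sostdc1 (-0.26, adjusted p 0.071) and Enpp2 (-0.29, adjusted p 0.16) did not pass the test. Of the markers of other cells, all 11 macrophage and all 9 lymphocyte genes were higher in MRL/lpr over both ages, Dcn was higher among 13 fibroblast and meningeal genes, and none of 10 oligodendrocyte, 7 astrocyte, 6 ependymal, 6 endothelial or 7 neuronal genes was called. Oligodendrocytes also make Ptgds and Trf; their 10 markers summed to 137 to 735 CPM in MRL/lpr and 135 to 275 CPM in MRL/+ at 16 weeks, and to 120 to 791 CPM in MRL/lpr and 227 to 361 CPM in MRL/+ at 12 weeks.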

How the data were processed

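RNA from 18 choroid plexus samples was sequenced with the Illumina TruSeq RNA kit v2, which does not mark strand, per the labels' protocols. The authors deposited whole-number counts of reads per gene; alignment with STAR 2.5.3a to GRCm38 and counting with featureCounts 1.26.0 are per the submitters' processing notes, which also name DESeq2 1.16.1. The sources used here do not give the annotation, the strand setting or the treatment of reads on overlapping genes. CPM (TMM-scaled), TPM and shares were computed here from those deposited counts. Genes were filtered with filterByExpr. A model with 1 mean for each group was fitted with edgeR 4.0.16 (robust quasi-likelihood, R 4.3.3) on the whole table. Benjamini-Hochberg adjustment ran over 16598 genes. Limma-voom 3.58.1 and DESeq2 1.42.0 were alternatives. Limma-voom was run with sample quality weights, which give more variable libraries less weight. Strain over both ages is the mean of both strain contrasts. SEs are the log2 fold change over the root of F, and 95% intervals use 14 degrees of freedom. The code was tested on simulated data. Correlations used a prior count of 2 and 100000 permutations within groups. Named genes were the 10 members, up to 4 genes per other list with the smallest p over both ages, and the 3 most alike genes per member. Members and lists were chosen with earlier results of these data known. No libraries within a group were copies: the smallest chi-square per gene was 5.61. Depth gives at least 395 counts for any of the 10 genes in any library. PCR reads without molecular identifiers are not independent molecules.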

Additional observations from a re-analysis of the deposited data

Results flagged for a closer look

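In 3 cases 1 library of the MRL/lpr 12 week group stood apart from the other 5 for a gene, by the gap to its nearest neighbour relative to the group's range. Of 20 groups examined, chance flags about 1 in 20. Enpp2 was highest in replicate 3, at 80334 CPM, where the next library had 57202 CPM; Ttr was also highest there, at 222757 CPM. Ptgds was highest in replicate 1, at 3892 CPM, the library with the highest macrophage sum of all (3875 CPM) and with pineal markers at 64.5 CPM. Trf was highest in replicate 5, at 78.4 CPM, the library with the highest oligodendrocyte sum (791 CPM). Over 18 libraries, within groups, Trf went with the oligodendrocyte sum at r = 0.12 (rho -0.12). With the sum of the other epithelium genes r was 0.54 (rho 0.67). MRL/lpr 16 weeks replicate 3 had an oligodendrocyte sum of 735 CPM and the lowest Trf of its group, 41.0 CPM. The part of macrophage, pineal and oligodendrocyte transcripts in the high values was not tested.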

How the results depend on the processing

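Of 1360 single-gene results under alternative settings, 1292 stayed on the same side of the threshold, 46 lost the call and 22 gained one. No result called in either fit turned round. The 1292 include results called in neither fit whose sign changed. Igfbp2 at 12 weeks, for example, was below 0 in 12 of 21 fits. Igf2, Sostdc1, Kl and Enpp2 were below 0 over both ages in all 29 fits. The number of the 10 genes called at 16 weeks was 1 by edgeR, with 11.1% of all genes called. It was 0 with total counts in place of TMM (12.4%) and 0 without the low count filter (4.2%). With only the groups compared it was 0 (8.41%). Without the 4 libraries that stood out for pineal, muscle or cerebellar markers it was 0, with 3.01% of all genes called. It was 3 with DESeq2 (15%) and 5 with limma-voom (29.2%). Over both ages it was 4 (16.3% of all genes), and 2 with total counts (13.7%) and 1 scaled to other epithelium genes (17.1%). Without the filter it was 1 (6.77%), and without the 4 libraries it was 1 (9.41%). At 12 weeks it was 0, and 1 with DESeq2 and 5 with limma-voom (6.35%, 10% and 21% of all genes); limma-voom also called 1 gene, Ptgds, for age in MRL/+, where it called 10.4% of all genes. An alternative chosen after seeing the data left out the 2 libraries with the highest endothelial sums. There the number was 3 at 12 weeks (Ptgds, Kl, Igf2, with 13.6% of all genes called) and 3 at 16 weeks (Kl, Igf2, Sostdc1, with 10.5%). Leaving out 1 library gave 0 to 3 calls at 16 weeks, 1 to 4 over both ages and 0 in the other comparisons. At 16 weeks there were 0 without MRL/lpr replicate 1 (7.91% of all genes called), MRL/lpr replicate 3 (8.3%) or MRL/+ replicate 3 (3.91%). There were 2 without MRL/lpr replicate 4 (8.13%) and 3 without MRL/lpr replicate 5 (15.7%). Over both ages Igf2 alone was called without MRL/lpr 16 weeks replicate 1 (13.3%). The same held without MRL/+ 12 weeks replicate 2 (11.8%) or MRL/+ 16 weeks replicate 3 (11.9%). There were 2 without MRL/lpr 12 weeks replicate 4 (14%) or MRL/lpr 16 weeks replicate 3 (13.6%). There were also 2 without MRL/+ 12 weeks replicate 1 (15.5%) or replicate 3 (11.5%). The causes were not tested.

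The summed share in MRL/lpr at 16 and 12 weeks and MRL/+ at 16 and 12 weeks was 6.33%, 7.27%, 8.47% and 8.93% without Ttr; outside mitochondrial genes it was 27.6% in MRL/lpr at 12 weeks and 29.8% in MRL/+ at 16 weeks. Leaving out 1 library it ran from 21.3% to 22.9%, 24.9% to 26.0%, 26.2% to 27.4% and 24.3% to 26.4%. At 16 weeks the log2 fold change over all genes had a median of 0.03, and 0.28 with total counts and 0.31 scaled to epithelium genes; the share of called genes that were higher in MRL/lpr over both ages was 67.9%, and 89.3% and 97.3% under these scalings, 83.2% without the filter and 48.4% with limma-voom. Over both ages 16.3% of genes were called, and 34.5% with limma-voom. With the replicate number as a block, 0 of the 10 genes were called at 12 weeks, 1 at 16 weeks and 3 over both ages. Of all genes 6.58%, 8.58% and 13.7% were called there. Enpp2 lost its call (-0.61, adjusted p 0.082). The numbers did not pair the libraries: same-numbered libraries correlated between -0.62 and 0.45, and 2 of 18 correlated best with their own number.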
